A study of Mus musculus with 12 samples.

Results

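The nuclear genes of oxidative phosphorylation were followed across the hormone-producing cells of the mouse islet. Members were taken by name: every symbol that starts with Nduf, Uqcr, Atp5 or Cox4 to Cox8, plus Sdha, Sdhb, Sdhc and Sdhd, with pseudogenes left out. This gave 93 of the 31055 genes listed in the single-cell files and 92 of the 45808 genes in the bulk table, 94 in either and 91 in both. Atp5o has a second entry in the single-cell files, which is counted as a member of its own. The 93 were sorted to complexes by symbol alone, here and below, so not each need be a subunit of the complex it is counted with. On that basis 38 were counted as subunits of complex I and 8 as its assembly factors (Ndufaf). Complex II had 4, complex III 8, complex IV 18 and complex V 17. After a filter on low counts 85 were tested in single cells and 88 in bulk.

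The study asked how pancreatic polypeptide (Ppy) producing γ-cells differ from the other islet cells. Single cells came from islets of 2-month-old Ppy-rtTA; R26-YFP mice on a mixed background that had received doxycycline at 1 mg/ml in their water. In this line rtTA replaces the coding sequence of 1 Ppy allele, the other Ppy allele is intact, and with TetO-Cre doxycycline switches on a lasting YFP label in cells that transcribe Ppy. YFP+ and YFP- cells were sorted and loaded on separate 10x 3' lanes in 2 experiments, each with islets of several mice pooled, which gave 4 libraries. Bulk RNA came from sorted YFP+ cells: 5 γ-cell libraries of Ppy-rtTA;TetO-Cre;R26-YFP mice, also 2 months old and given doxycycline, and 3 δ-cell libraries of 2-month-old Sst-Cre;R26-YFP mice, both on mixed backgrounds. In the latter Cre is driven by the somatostatin gene, so that a cell that once expressed it stays labelled. The γ-cell libraries were read as pairs on 1 instrument model and the δ-cell libraries as single reads of 100 bases on another. Whether the δ-cell mice also received doxycycline was not clear. Cell type, mouse line, sequencing and any difference in doxycycline thus cannot be told apart in bulk.

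As background, complexes I to IV pass electrons from NADH and succinate to oxygen, all but complex II pump protons across the inner mitochondrial membrane on the way, and complex V, the ATP synthase, uses the gradient to make ATP. Most subunits are encoded in the nucleus, a few in mitochondrial DNA. In β-cells the ATP made from glucose closes potassium channels, a step on the way to insulin release. Some complex IV subunits have tissue isoforms: COX6A1 and COX7A2 are the common forms, and COX6A2 and COX7A1 are known from heart and skeletal muscle.

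Promoters of these genes are known for sites of NRF1, a factor named for its role at respiratory genes, and of ETS family factors such as GABP. A RefSeq window (GRCm38.p6, 250 bases before to 50 after the start) was found for 77 of the 94 members. The NRF1 core, read here as GCGCA, any base (N) and GCGC in a row, stood on either strand in 19 of 77 members (24.7%) against 5.19% of all 27025 genes with a window. Its stricter form with T as that base, which is part of the former, stood in 7 (9.09%) against 1.07%. The ETS core CCGGAAG stood in 18 members (23.4%) against 9.93%, and the YY1 core AAGATGGC in 12 (15.6%) against 3.19%. Shown are the 250 bases before the start of 4 members that the results below turn on. Cox6a1 and Ndufa11 hold these letters and Cox5a and Cox7a1 hold none of them in the window. Capitals mark the NRF1 core with any middle base and CCGGAAG, on either strand. In Cox6a1 the NRF1 letters begin 162 and 117 bases and the ETS letters 16 bases before the start, and in Ndufa11 the NRF1 letters begin 60 bases before it. A match is a description of letters and says nothing of what binds there.
Cox6a1, chr5:115348959-115349208, minus strand: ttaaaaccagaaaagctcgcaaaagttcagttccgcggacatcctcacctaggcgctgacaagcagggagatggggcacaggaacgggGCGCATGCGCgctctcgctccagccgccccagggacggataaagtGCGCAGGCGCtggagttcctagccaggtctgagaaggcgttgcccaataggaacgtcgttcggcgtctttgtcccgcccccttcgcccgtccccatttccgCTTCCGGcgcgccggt
Ndufa11, chr17:56717512-56717761, plus strand: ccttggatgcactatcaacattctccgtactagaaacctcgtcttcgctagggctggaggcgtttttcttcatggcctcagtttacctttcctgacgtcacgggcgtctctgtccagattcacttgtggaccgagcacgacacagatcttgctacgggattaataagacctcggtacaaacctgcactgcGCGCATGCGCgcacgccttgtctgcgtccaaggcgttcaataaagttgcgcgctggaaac
Cox5a, chr9:57520982-57521231, plus strand: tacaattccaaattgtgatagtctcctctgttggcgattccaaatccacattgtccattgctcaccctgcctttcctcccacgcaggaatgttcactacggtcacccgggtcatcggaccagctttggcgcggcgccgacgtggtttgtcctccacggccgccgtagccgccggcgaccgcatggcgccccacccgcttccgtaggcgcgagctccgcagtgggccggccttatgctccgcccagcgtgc
Cox7a1, chr7:30183921-30184170, plus strand: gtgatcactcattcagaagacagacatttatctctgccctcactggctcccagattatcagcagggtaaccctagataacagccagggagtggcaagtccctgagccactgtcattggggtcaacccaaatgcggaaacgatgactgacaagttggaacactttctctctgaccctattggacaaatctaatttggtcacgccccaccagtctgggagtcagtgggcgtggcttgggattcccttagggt

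The 4 libraries held 5982 cells with medians of 4237 to 8338 unique molecular identifiers (UMIs) per cell, and pairs of libraries shared 1 to 6 cell barcodes. Cells were put in 7 hormone classes by thresholds on Ppy, Gcg, Ins2 and Sst, 4120 cells in all, and UMIs were summed per class and experiment into 14 sums. The class names follow the hormones: Ppy (γ-cells, 690 and 798 cells in experiments 1 and 2), Gcg (α-cells, 310 and 294), Ins2 (β-cells, 436 and 93), Sst (δ-cells, 121 and 127), Ppy+Gcg (374 and 380), Ppy+Sst (171 and 203) and Ppy+Ins2 (84 and 39). The marker lists of the 4 cell types were highest in their own class, which is no separate check, as they hold the hormones that set the classes. The Sst sums of experiments 1 and 2 also held 5.13% and 4.02% of UMIs on the β-cell list and 4.16% and 3.48% on the γ-cell list. Of the 1488 Ppy cells 11 were YFP-, and of the Gcg, Ins2 and Sst cells 1 was YFP+, so that a comparison with the Ppy class is also one between sorted fractions, while Gcg, Ins2 and Sst cells share libraries. The 20 immune markers summed to 58.0 and 78.2 CPM (UMIs scaled to a common total, without the TMM factor used for members below) in the Ppy sums, with 17 and 18 of them above 0, and to 377 to 1120 CPM in the Gcg, Ins2 and Sst sums, with 16 to 19 above 0. The 18 acinar markers summed to 124 and 174 CPM in the Ppy sums and to 158 to 767 CPM in the other 3 classes. The part of such RNA in the comparisons with the Ppy class was not tested.

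The summed share of the members in the UMIs turned on how the hormone genes were counted. In γ-cells they held 1.42% and 1.43% of all UMIs in experiments 1 and 2, in α-cells 1.95% and 1.89%, in β-cells 0.984% and 1.06%, and in δ-cells 2.09% and 2.30%. β-cells were lowest and δ-cells highest, in both experiments. The 7 hormone genes Ppy, Gcg, Ins1, Ins2, Sst, Pyy and Iapp took 52.3% and 53.0% of the UMIs of γ-cells, 33.9% and 33.9% of α-cells, 74.8% and 70.7% of β-cells and 30.5% and 22.7% of δ-cells. With these genes left out of the total, the order turned. Members then held 3.91% and 3.63% in β-cells, 2.96% and 3.04% in γ-cells, 2.95% and 2.87% in α-cells and 3.00% and 2.97% in δ-cells. β-cells were above the other 3 classes in both experiments, the γ- and δ-cell ranges overlapped, and both α-cell sums lay just below them. Over single cells, the median share without hormone genes was 3.84% and 3.58% in β-cells and 2.91% and 2.99% in γ-cells. In β-cells the larger share was seen in complexes I, III, IV and V alike, for example 1.397% and 1.278% for complex I subunits against 1.04% and 1.05% in γ-cells, and 0.994% and 0.951% for complex IV against 0.723% and 0.757%. These shares are descriptions with no test, and the β-cells were also the deepest class, at medians of 23871.5 and 12623 UMIs per cell against 7594.5 and 5939 in γ-cells.

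**Figure D1:**
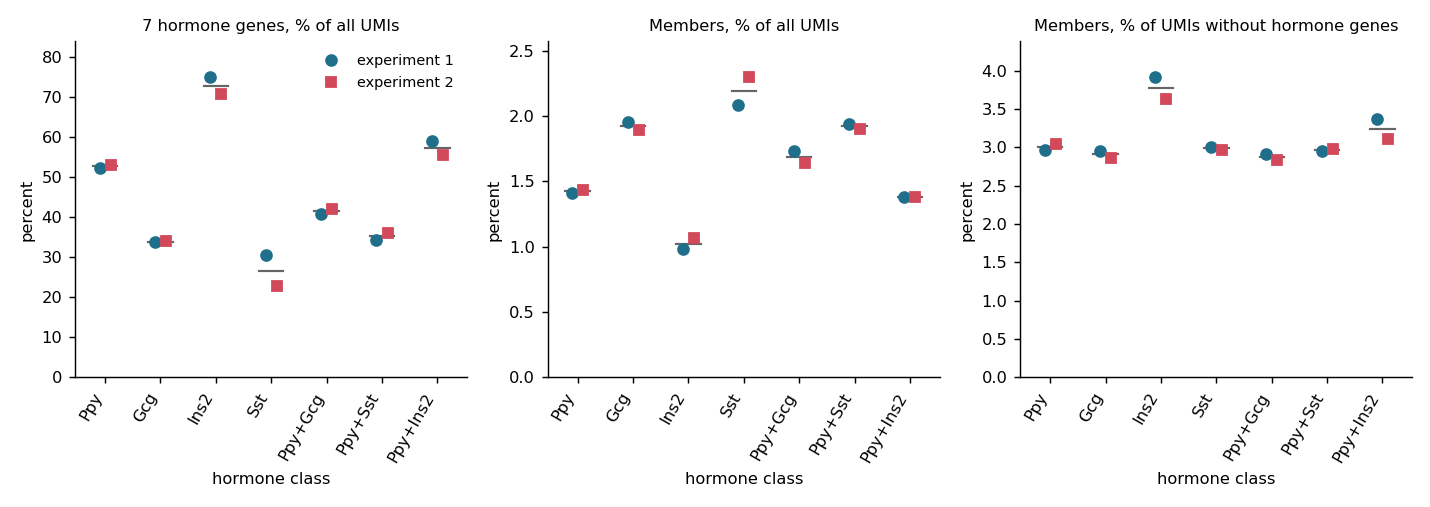
Share of UMIs, in percent, held by 7 hormone genes (left) and by the members, of all UMIs (middle) or of the UMIs without hormone genes (right), for the 7 hormone classes; circles and squares are experiments 1 and 2 and bars their mean. β-cells (Ins2) are lowest in the middle panel, at 0.984% and 1.06%, and highest in the right one, at 3.91% and 3.63%.

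Gene by gene, fold changes were computed with TMM scaling, which sets most genes to no change, so that they do not carry the hormone effect above. A gene was called changed at an adjusted p of at most 0.05 over all 10398 genes tested. Between γ- and α-cells 10 of 85 members changed, or 11.8% against 18.9% of all genes, with 3 higher and 7 lower in γ-cells (all genes 9.35% and 9.54%). Between γ- and β-cells 19 changed, or 22.4% against 36.6%, with 4 higher and 15 lower in γ-cells (all genes 17.7% and 19%). Between γ- and δ-cells 14 changed, or 16.5% against 13.5%, with 12 higher and 2 lower (all genes 6.36% and 7.18%). Among the classes of the same libraries, 23 members changed between β- and α-cells (27.1% against 29.3%), 15 higher and 8 lower in β-cells (all genes 15.4% and 14%). Between β- and δ-cells 21 changed (24.7% against 17.2%), 21 higher and 0 lower in β-cells (all genes 8.87% and 8.34%). Between δ- and α-cells 17 changed (20% against 13.4%), 0 higher and 17 lower in δ-cells (all genes 7.01% and 6.41%). With the study's fold threshold added (0.721 on the log2 scale), 3, 5, 3, 8, 12 and 5 members were left in these 6 comparisons, in the order given, against 12.2%, 26.1%, 11.5%, 22.2%, 14.9% and 11.8% of all genes. The members' median log2 fold change was -0.01 for γ over α, -0.03 for γ over β, 0.20 for γ over δ, 0.04 for β over α, 0.23 for β over δ and -0.21 for δ over α, against medians of all genes between -0.03 and 0.03. δ-cells thus had the lower median in all 3 of their comparisons, by about 0.2 on the log2 scale. With the library as the block, described next, these medians were 0.08 for γ over δ, 0.19 for β over δ and -0.18 for δ over α.

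These counts rest on the scaling and on the experiment as a block in the fit. With library size as the sole scaling, an alternative added after the data were seen, the median of all genes moved to -0.40 (γ over α), 0.66 (γ over β), -0.80 (γ over δ), -1.05 (β over α), -1.46 (β over δ) and 0.41 (δ over α). The higher and lower calls among members became 1 and 46, 60 and 3, 0 and 64, 1 and 76, 2 and 76, and 15 and 1. Over all 10398 genes they were 354 and 3162, 5379 and 704, 176 and 4343, 350 and 7290, 141 and 7115, and 1734 and 317. All directions below are therefore relative to most other genes. Without the experiment block the calls among members fell to 1 higher and 1 lower (γ over α), 1 and 7 (γ over β), 3 and 1 (γ over δ), 10 and 4 (β over α) and 0 and 8 (δ over α). The calls over all genes in this fit and the next are not given. With UMIs summed within each library and library in place of experiment as the block, where the Ppy class is tied to the others by 10 of those YFP- cells, in experiment 2, and by the bihormonal cells, the counts were 0 and 1 for γ over α, 2 and 0 for γ over δ and 1 and 15 for γ over β.

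**Figure D2:**
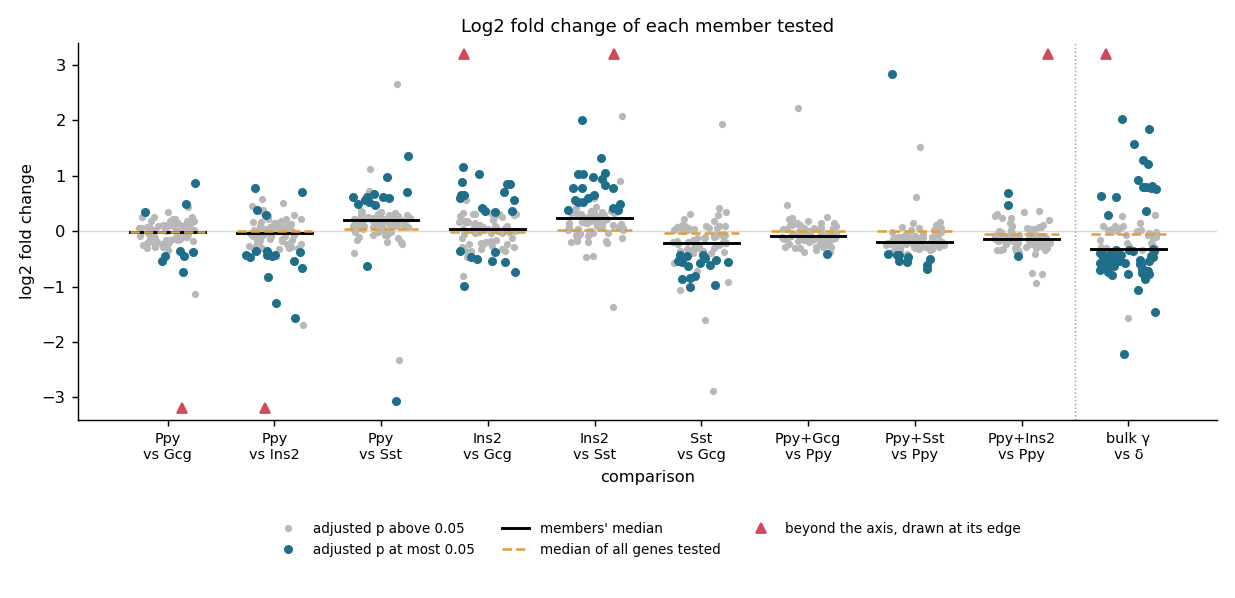
Log2 fold change of each member tested in the 9 single-cell comparisons and in bulk γ over δ (right of the dotted line); dark points passed an adjusted p of 0.05, black bars are the members' median and dashed bars the median of all genes tested. The triangles at the edge stand for 6 called values beyond 3.2, Cox6a2 in 5 comparisons and Ndufaf6 in bulk; the members' median lies above that of all genes for Ppy and Ins2 over Sst and below it for Sst over Gcg and bulk γ over δ.

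The member that set one class apart most was Cox6a2, the muscle isoform of complex IV subunit VIa. The gene (ENSMUSG00000030785) lies at chr7:128205435-128206387 of GRCm38 on the minus strand, and Itgad overlaps it on the other strand. β-cells held 987 and 80 Cox6a2 UMIs, or 189 and 98 CPM, and a UMI was seen in 59.6% of 436 and 37.6% of 93 β-cells (95% exact binomial intervals 54.9 to 64.3% and 27.8 to 48.3%, counting error only). The other monohormonal classes were near 0. γ-cells held 1 UMI in 690 cells and 0 in 798, which at 3 counts allows a share of cells with a UMI of up to 0.376% in the latter, α-cells 11 and 2 UMIs, and δ-cells 1 and 0, the latter allowing, at 3 counts, up to 2.36% of 127 cells. In CPM of the UMIs without hormone genes, over both experiments, β-cells were at 358 and α-cells at 3.898, a ratio of 91.8 (95% counting interval 53.4 to 173). The ratio of β-cells to γ-cells, on 1 UMI, was 1957 (350 to 77353), and that to δ-cells, also on 1 UMI, 234 (41.9 to 9256). In edgeR's test of β- over α-cells the log2 fold change was 5.94 ± 0.28 (adjusted p = 7.9e-17). The adjusted p was 2.7e-19 against γ-cells and 2.4e-12 against δ-cells. Each ± on a log2 fold change is its absolute value over the square root of edgeR's F statistic. This is an approximate SE and can fall short of the counting error where UMIs are few.

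The Ppy+Ins2 sums fell between, though most of these cells held no Cox6a2 UMI. This class held 21 and 12 Cox6a2 UMIs in 5 of 84 and 6 of 39 cells. β-cells held 987 and 80 in 260 of 436 and 35 of 93 cells. Pooled over both experiments, the Ppy+Ins2 level was 55.9 CPM of the UMIs without hormone genes. This was 6.40 times less than in β-cells (interval 4.53 to 9.35, counting error only). The interval leaves out the spread between experiments, and the gap was smaller in experiment 2. In TMM-scaled CPM, β-cells were at 189 and Ppy+Ins2 cells at 25 in experiment 1, but at 98 and 33 in experiment 2. Whether doublets remained in the Ppy+Ins2 class was not tested. Ppy+Gcg cells had 5 and 0 UMIs and Ppy+Sst cells 0 and 1. The common form Cox6a1, whose promoter is shown above, was at 353 to 362 CPM in β-cells, 320 and 321 in γ-cells, 335 and 344 in α-cells and 270 and 282 in δ-cells. Of the UMIs of the 2 isoforms together, Cox6a2 made up 34.3% (interval 32.6 to 36.1%) and 21.7% (17.6 to 26.3%) in β-cells and 7.87% (4.93 to 11.8%) and 11.9% (6.29 to 19.8%) in Ppy+Ins2 cells. In the 3 other monohormonal classes it made up 0% to 1.122%.

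**Figure D3:**
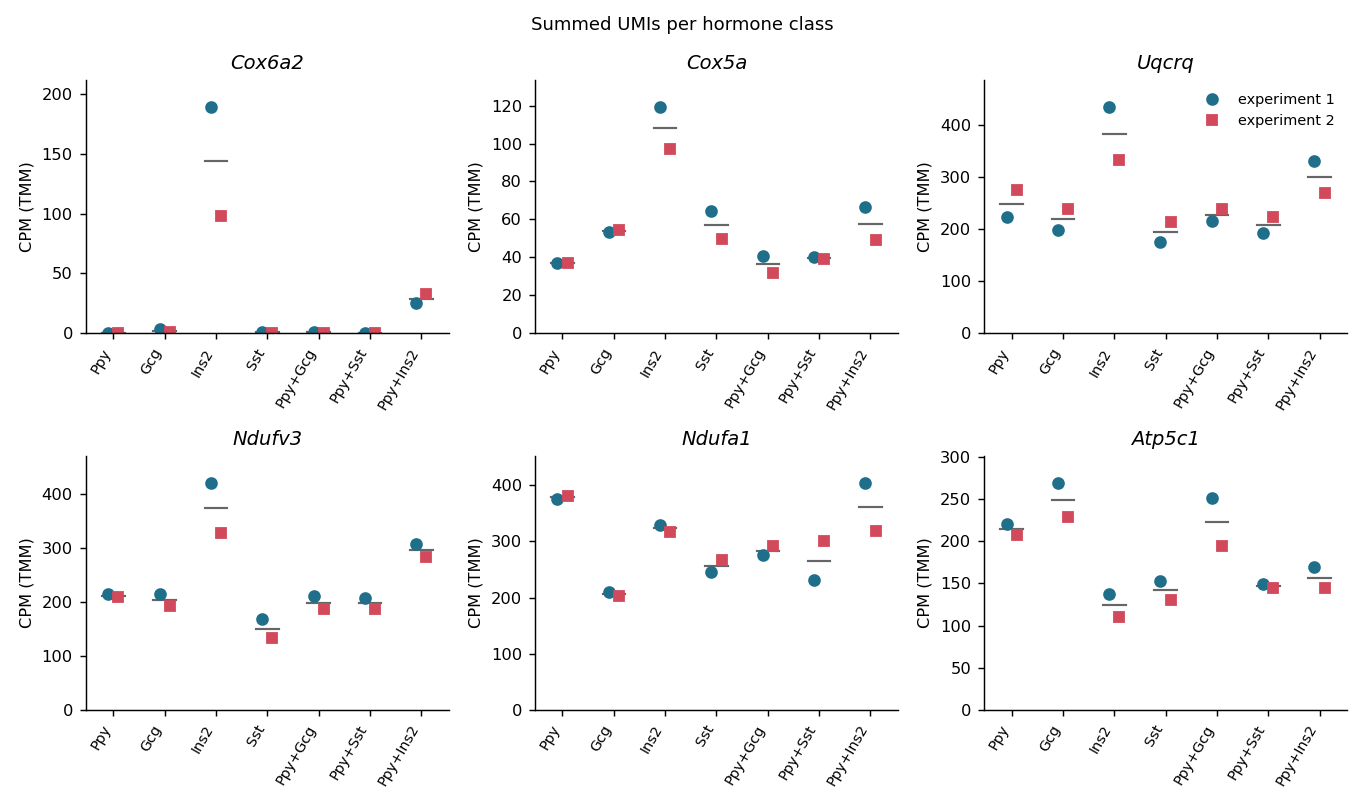
TMM-scaled CPM of 6 members in the 7 hormone classes; circles and squares are experiments 1 and 2 and bars their mean. Cox6a2 is at 189 and 98 CPM in Ins2 cells and at 25 and 33 in Ppy+Ins2 cells, Cox5a, Uqcrq and Ndufv3 are highest and Atp5c1 lowest in Ins2 cells, and Ndufa1 is higher in Ppy than in Gcg and Sst cells.

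The other tissue isoforms were rare. Cox7a1, the muscle form of subunit VIIa, had 7 and 5 UMIs in δ-cells (9.4 and 8.3 CPM) and 7 and 3 in the far larger γ-cell sums (1.4 and 0.6 CPM), a log2 fold change of -3.06 ± 0.77 (γ over δ, adjusted p = 0.0056). A Cox7a1 UMI was seen in 4.96% and 3.94% of δ-cells at medians of 4142 and 2942 UMIs, and in 0.870% and 0.251% of γ-cells at 7594.5 and 5939. The share was 2.52% and 7.53% in the deeper β-cells and 1.29% and 2.72% in α-cells. With the library as the block the difference was -1.80 (adjusted p = 0.31). Its common partner Cox7a2 was between 343 and 422 CPM in the 4 monohormonal classes with no call between any of them. The 204 UMIs of Cox6b2, the 97 of Ndufa4l2, the 36 of Cox4i2, the 18 of Cox7b2 and the 4 of Cox8b were over all cells and too few to test, as were the 92 of Ndufaf6 and the 3 of Atp5o, whose second entry was tested, and Cox8c had 0. In bulk Cox4i2, Cox7b2, Cox8b and Cox8c had 5, 14, 2 and 1 reads over 8 libraries and were not tested. Of the 3 genes for the c-ring of complex V, which share 1 mature protein, Atp5g1 stood at 349 and 356 CPM in γ-cells, 453 and 454 in β-cells, 250 and 254 in α-cells and 260 and 201 in δ-cells. Both β and γ were above α and δ with no overlap, by 0.84 ± 0.13 for β over α (adjusted p = 3.7e-06) and 0.48 ± 0.12 for γ over α (adjusted p = 0.0047). The latter was 0.28 with the library as the block (adjusted p = 0.49). Atp5g2 went the other way, at 383 and 310 CPM in β-cells against 525 and 463 in α-cells (-0.50 ± 0.12, adjusted p = 0.0023).

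β-cells were set apart by a handful of further members. Cox5a, subunit Va of complex IV (chr9:57521274-57532426), was at 119 and 97 CPM in β-cells, 37 and 37 in γ-cells, 54 and 54 in α-cells and 65 and 50 in δ-cells. β-cells were above every other sum, by 1.57 ± 0.13 on the log2 scale over γ-cells (adjusted p = 6.3e-11), 1.02 ± 0.14 over α-cells (adjusted p = 4.4e-07) and 0.94 ± 0.18 over δ-cells (adjusted p = 2.8e-04). The Cox5a difference between γ- and β-cells was -0.90 with the library as the block (adjusted p = 0.0015). Ndufv3, a small subunit of the NADH-binding part of complex I, was at 420 and 328 CPM in β-cells and between 133 and 214 in the other 3 classes. Uqcrq of complex III was at 435 and 332 CPM against 175 to 275, and Ndufa4, counted with complex I by its name but now assigned to complex IV, at 400 and 324 against 201 to 269. Ndufa11 of complex I was at 221 and 198 CPM in β-cells against 109 to 167. These 4 genes, like Cox5a, were called higher in β-cells against each of the other 3 classes.

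The reverse was seen for fewer genes. Atp5c1, the γ subunit of the rotor stalk of complex V, was at 137 and 110 CPM in β-cells, 269 and 230 in α-cells, 221 and 208 in γ-cells and 153 and 131 in δ-cells. β-cells were below γ- and α-cells, with log2 fold changes of -0.99 ± 0.13 for β over α (adjusted p = 1.95e-07) and 0.78 ± 0.12 for γ over β (adjusted p = 8.95e-06). Ndufa6 was at 304 and 294 CPM in β-cells against 512 and 483 in α-cells (-0.73 ± 0.12, adjusted p = 8.7e-06), with γ-cells between at 369 and 363. Uqcrh, the hinge protein of complex III, was at 332 and 321 CPM in β-cells against 495 and 461 in α-cells (-0.55 ± 0.12, adjusted p = 3.9e-04). Sdhd, a membrane anchor of complex II, was at 23 and 38 CPM in β-cells and 40 and 52 in γ-cells (0.70 ± 0.19 for γ over β, adjusted p = 0.0039). The Sdhd call was lost without the experiment block (0.74, adjusted p = 0.12) and with the library as the block (0.41, adjusted p = 0.38). Calls within a complex went both ways: of the 37 complex I subunits tested 9 were higher and 1 lower in β- than in α-cells, of 13 complex IV subunits 4 and 1, of 8 complex III subunits 1 and 1, and of 16 complex V subunits 1 and 4. Of all genes 15.4% were higher and 14% lower in this comparison.

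Against α-cells, γ-cells stood out by Ndufa1, a small subunit of complex I encoded on the X chromosome (chrX:37187588-37191163, minus strand). It was at 376 and 381 CPM in γ-cells, 210 and 203 in α-cells, 328 and 318 in β-cells and 245 and 267 in δ-cells. γ-cells were above all other monohormonal sums, by 0.87 ± 0.13 over α-cells (adjusted p = 4.8e-06) and 0.57 ± 0.14 over δ-cells (adjusted p = 0.0051). The Ppy+Gcg sums lay between, at 275 and 292 CPM. With the library as the block the γ over α difference was 0.36 (adjusted p = 0.33) and that over δ-cells 0.03 (adjusted p = 0.97). Uqcrfs1, the Rieske iron-sulfur protein of complex III, was at 54 and 53 CPM in γ-cells, 84 and 96 in α-cells, 62 and 86 in β-cells and 39 and 53 in δ-cells. α-cells were higher than γ-cells (-0.74 ± 0.14 for γ over α, adjusted p = 1.65e-04) and than δ-cells (-0.98 ± 0.21 for δ over α, adjusted p = 0.0012). With the library as the block the first of these was -0.13 (adjusted p = 0.84). Cox5a was called lower in γ- than in α-cells (-0.54 ± 0.14, adjusted p = 0.0052) and δ-cells (-0.63 ± 0.20, adjusted p = 0.029), but both turned sign with the library as the block, to 0.14 and 0.03 (adjusted p = 0.85 and 0.98). The remaining calls for γ over α were Ndufa11 (higher), and Atp5l, Ndufa6, Atp5b, Cox7a2l and Cox6a2 (lower).

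Against δ-cells most γ-cell calls were higher. Of the 85 members tested 68 lay above 0, a count given without the share of all genes. The members' median was 0.20 against 0.03 for all genes, and 0.08 with the library as the block. The 2 lower calls were Cox7a1 and Cox5a, given above. The 12 higher members included Ndufa9, Uqcrc1, Atp5e, Ndufab1, Atp5g1, Sdhb, Atp5c1 and Ndufa1. The largest, Ndufa9 of complex I, was at 29 and 27 CPM in γ-cells and 9 and 13 in δ-cells (1.35 ± 0.34, adjusted p = 0.0067). Uqcrc1, a core protein of complex III, was at 46 and 40 CPM against 24 and 20 (0.98 ± 0.27, adjusted p = 0.012). Atp5e, the ε subunit of complex V, was at 685 and 747 CPM against 374 and 527 (0.68 ± 0.15, adjusted p = 0.0013). Fitted with the library as the block, Uqcrc1 was at 1.21 and passed (adjusted p = 0.013), while Ndufa9 was at 1.38 (adjusted p = 0.061) and Atp5e at 0.32 (adjusted p = 0.51) and did not. Without the experiment block the higher members that passed were Atp5e, Atp5g1 and Ndufa1. The δ-cell sums were the smallest, 519635 and 379554 UMIs, which limits these values. Within the YFP- libraries, with TMM scaling, all 17 calls against α-cells were lower in δ-cells, 8 of them among 16 complex V subunits. Of all genes 6.41% were lower. Atp5e was at 844 and 795 CPM in α-cells (-0.87 ± 0.15 for δ over α, adjusted p = 4.8e-05). The members' share of UMIs without hormone genes was not lower in δ-cells, at 3.00% and 2.97% against 2.95% and 2.87% in α-cells. With library size alone 15 members were higher and 1 lower in δ-cells, against 1734 and 317 of all 10398 genes. Of the 4 complex II genes, Sdhb was higher in γ- than δ-cells (75 and 67 against 50 and 43 CPM, 0.61 ± 0.18, adjusted p = 0.020, and 0.42 with the library as the block, adjusted p = 0.49) and Sdhc in β- than δ-cells (46 and 39 against 26 and 17 CPM, 1.04 ± 0.27, adjusted p = 0.0055), while Sdha, the flavoprotein, ranged from 38 to 65 CPM over the 8 monohormonal sums and was not called between any of them.

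Bihormonal cells were set against γ-cells. They were taken from any kept cluster, while the study left out those in monohormonal clusters. In experiments 1 and 2, 44 of 374 and 42 of 380 Ppy+Gcg cells were YFP-. For Ppy+Sst this was 73 of 171 and 56 of 203, and for Ppy+Ins2 11 of 84 and 3 of 39. In the Ppy class it was 1 of 690 and 10 of 798. These comparisons are thus in part also between sorted fractions. In Ppy+Gcg cells 1 member passed, Ndufa1 (-0.42 ± 0.12, adjusted p = 0.045), or 1.18% of 85 against 4.77% of all genes (2.82% higher and 1.95% lower, 2.79% with the fold threshold). It did not pass without the cells of 1 kept cluster led by Lyz2 and Retnla, genes known from myeloid cells, to which 22 Ppy+Gcg and 18 Ppy cells belonged (-0.40, adjusted p = 0.052). In Ppy+Ins2 cells 4 passed (4.71% against 8.4% of all genes, 4.94% higher and 3.45% lower, 6.85% with the fold threshold): Cox6a2, Cox5a (66 and 49 CPM, 0.68 ± 0.20, adjusted p = 0.033) and Ndufv3 (307 and 284 CPM, 0.47 ± 0.13, adjusted p = 0.022) were higher and Atp5c1 (169 and 145 CPM, -0.45 ± 0.14, adjusted p = 0.048) lower. Cox5a and Atp5c1 did not pass with the library as the block (adjusted p = 0.082 and 0.057). In the class sums these genes stood between the γ- and the β-cell levels. In Ppy+Sst cells 10 passed (11.8% against 10.3% of all genes, 5.93% higher and 4.33% lower, 7.73% with the fold threshold): Cox7a1 was higher (9 and 12 UMIs, 7.7 and 7.8 CPM, 2.83 ± 0.65, adjusted p = 0.0033), and 9 members, among them Sdhd, Sdhb, Atp5c1, Ndufa1, Atp5e and Atp5g1, were lower, by 0.41 to 0.69. The members' medians were -0.09, -0.15 and -0.20 for Ppy+Gcg, Ppy+Ins2 and Ppy+Sst over Ppy. Without the experiment block no member passed for Ppy+Gcg, 1 for Ppy+Sst and 1 for Ppy+Ins2. With library size alone the higher and lower calls were 10 and 0, 54 and 0, and 3 and 0 for Ppy+Gcg, Ppy+Sst and Ppy+Ins2, as the median of all genes moved to 0.32, 0.63 and -0.02. Over all 10398 genes these calls were 1453 and 47, 4262 and 73, and 500 and 253. The 3 comparisons share the γ-cell sums with each other and with those above.

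The subunits made inside the mitochondrion were read beside the nuclear ones. Of the 13 mtDNA-encoded subunits, 13 were higher in β- than δ-cells (against 17.2% of all genes called) and 9 in γ- than δ-cells (69.2%, against 13.5%). In δ-cells 10 were lower than in α-cells (76.9%, against 13.4%). The medians were 0.88, 0.46 and -0.74, with no call in the opposite direction. Between γ- and β-cells 7 of 13 were lower in γ-cells (53.8% against 36.6%, median -0.39), and between γ- and α-cells 3 (23.1% against 18.9%, median -0.22). The comparisons with γ-cells are also between sorted fractions. No fit with the library as the block is given for the mtDNA-encoded subunits or for the lists that follow. Their share of UMIs without hormone genes was 9.22% and 5.99% in β-cells, 6.12% and 4.48% in γ-cells, 6.198% and 4.503% in α-cells and 4.77% and 4.18% in δ-cells, lower in experiment 2 in every class. The study kept cells with at most 7% mitochondrial UMIs of all UMIs, a limit that falls unevenly on classes that differ in hormone RNA. Its part in these values was not tested. The lists that follow are read against the shares of all genes called, 36.6% for γ against β, 13.5% for γ against δ, 18.9% for γ against α and 29.3% for β against α. Of 76 genes of the mitochondrial ribosome, 13 were higher and 4 lower in γ- than β-cells (22.4% called, median 0.23), and 6 and 1 in γ- than δ-cells (9.21%, median 0.28), both below the share of all genes. Of 19 genes of the TCA cycle and pyruvate entry, 3 were higher and 4 lower in γ- than β-cells (36.8%) and 2 and 0 in γ- than δ-cells, close to it. Of 39 assembly factors other than Ndufaf, 8 were higher and 0 lower in γ- than α-cells (20.5%). Of 7 Ndufaf members tested by edgeR 0 passed in any single-cell comparison. Of 7 genes of mitochondrial membrane transport, 4 were higher and 0 lower in γ- than β-cells (57.1%), and 0 and 5 in β- than α-cells (71.4%).

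In bulk, more members passed and most were lower in γ-cells. Of 88 tested, 16 were higher and 40 lower in γ- than in δ-cells, or 63.6% against 53.1% of 17926 genes (27.9% higher and 25.2% lower). With a fold threshold of 1 on the log2 scale 6 were higher and 3 lower, or 9 of 88 against 35% of all genes. The members' median was -0.32 against -0.06 for all genes. With upper-quartile scaling the split was 13 higher and 58 lower (median -0.62, all genes -0.35), and with library size alone 14 and 56 (-0.59, all genes -0.33). Of the 17926 genes 4150 were higher and 6465 lower with the former scaling and 4137 and 6207 with the latter. The γ-cell libraries held 14633838 to 31784878 reads and the δ-cell libraries 7641916 to 11773598. Members took 0.665% to 0.717% of the reads of γ-cell and 0.826% to 0.939% of those of δ-cell libraries. Without the 7 hormone genes the ranges were 0.921% to 0.970% and 0.924% to 1.08% and overlapped. In bulk, fewer cells of a type and less RNA per cell cannot be told apart. The γ-cell libraries also held Gcg RNA, with 4.63% to 8.66% of reads on the 7 α-cell markers against 0.234% to 0.736% in δ-cell libraries. The 5 γ-cell markers took 2.56% to 3.865% of reads in δ-cell libraries against 16.36% to 20.33% in γ-cell libraries. The 6 δ-cell markers took 0.772% to 1.22% in γ-cell libraries against 7.12% to 10.33% in δ-cell libraries. Acinar markers took 12.66%, 11% and 2.99% of the reads of δ-cell libraries 1, 2 and 3 and 0.268% to 1.52% in γ-cell libraries, with all 19 above 0 in each library. The part of these cells in the bulk differences was not tested.

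The lower members were spread over complex I (21 of 38 subunits lower, 5 higher), its assembly factors (4 lower and 1 higher of 7) and complex III (6 lower and 1 higher of 8), while complex IV had 3 lower and 2 higher of 14 and complex V 4 lower and 6 higher of 17. Of all genes 25.2% were lower and 27.9% higher. Ndufaf2, an assembly factor of complex I, was at 4.19, 5.71, 5.45, 5.46 and 8.27 CPM in the γ-cell and 12.3, 16.7 and 18.8 CPM in the δ-cell libraries. The log2 fold change was -1.46 ± 0.25 (adjusted p = 7.4e-04). Ndufb8 was at 31.4 to 41.2 CPM against 62.1, 90.4 and 77.4 (-1.06 ± 0.13, adjusted p = 8.2e-05). Atp5k was at 21.4 to 25.6 CPM against 41.7, 45.9 and 41.8 (-0.86 ± 0.11, adjusted p = 9.4e-05), Ndufb5 at 28.7 to 33.01 against 51.3, 57.9 and 54.1 (-0.79 ± 0.10) and Ndufa8 at 53.7 to 57.9 against 85.2, 109 and 90.1 (-0.77 ± 0.10). No overlap between groups was a condition for naming these 5. Cox7a1, lower in γ-cells here as in single cells, was at 0.290 to 0.745 CPM against 1.92, 3.84 and 2.28 (-2.22 ± 0.49, adjusted p = 0.0033). Sdha and Sdhc were lower (-0.63 ± 0.12 and -0.64 ± 0.12) and Sdhd higher in γ-cells (0.61 ± 0.13), so that complex II did not move one way. Of the other lists, 11 were higher and 30 lower of 76 mitochondrial ribosome genes, 4 and 5 of 19 TCA cycle genes and 4 and 2 of 12 mtDNA-encoded subunits, or 53.9%, 47.4% and 50% called against 53.1% of all genes.

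The largest higher values were those of Ndufaf6 (3.65 to 6.91 CPM against 0.452, 0.799 and 0.489, 3.32 ± 0.42, adjusted p = 7.7e-05), which was named after its values were seen, and Atp5l, subunit g of complex V. Atp5l was at 30.5, 26.0, 34.6, 33.3 and 34.1 CPM in the γ-cell and 7.92, 8.15 and 7.33 CPM in the δ-cell libraries (2.02 ± 0.16, adjusted p = 1.9e-06). Uqcrfs1 was at 124 to 143 CPM in γ-cell libraries and at 18.1, 14.1 and 76.9 CPM in δ-cell libraries, where library 3 stood apart from the others (1.84 ± 0.47, adjusted p = 0.0078). Ndufb4 was at 15.6 to 26.7 CPM against 6.56, 8.55 and 7.57 (1.57 ± 0.22), Ndufs5 at 36.2 to 42.4 against 15.3, 17.8 and 16.0 (1.28 ± 0.12) and Ndufab1, the mitochondrial acyl carrier protein, at 55.5 to 77.9 against 27.7, 32.9 and 30.5 (1.22 ± 0.13). Atp5b, the catalytic β subunit, was at 668 to 816 CPM against 366, 487 and 447 (0.75 ± 0.13), while its partner Atp5a1 was at 552 to 649 against 498, 670 and 548 and overlapped.

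**Figure D4:**
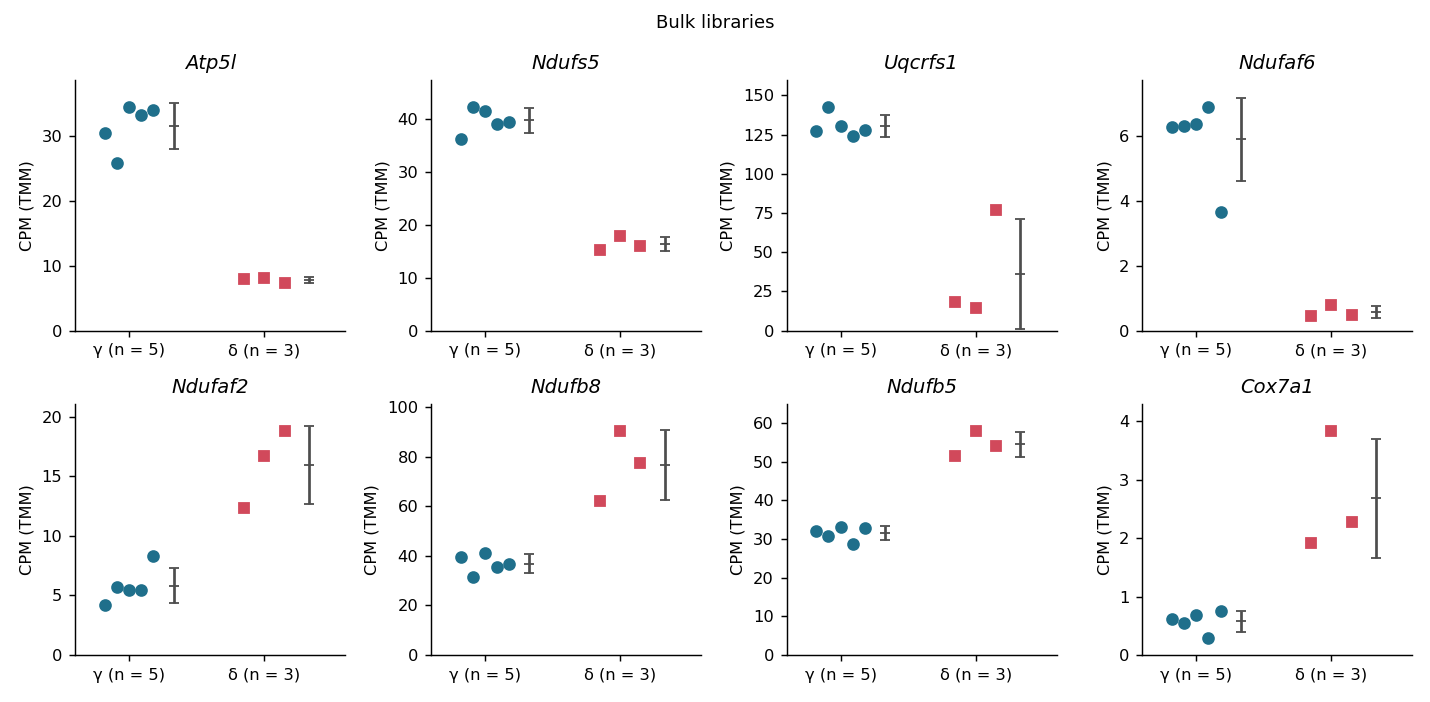
TMM-scaled CPM of 8 members in the 5 γ-cell (circles) and 3 δ-cell (squares) bulk libraries, with mean and SD beside them. The top 4 are higher in all γ-cell libraries and the bottom 4 lower, and δ-cell library 3 stands apart in Uqcrfs1, at 76.9 CPM.

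Several of the higher members, like some of the others, have stretches copied elsewhere in the genome, and their counts are uncertain for that reason. Over the main transcript of each member, windows of 100 bases, the length of the δ-cell reads, were compared with the genome. Of the 16 members higher in γ-cells, 8 had at least 1 window that was the same, letter for letter, at a second locus. At least 20% of windows were so in 5 of them. These counts were 6 and 2 of the 40 lower members and 9 and 3 of the 32 not called. In the higher members the shares were 87.5% in Atp5g2, 77.3% in Atp5l, 65.96% in Ndufs5 and 37.96% in Ndufb4. They were 22.9% in Cox5b, 19.9% in Atp5g1, 9.85% in Ndufab1 and 9.76% in Cox8a. Shares of at least 20% were also seen in Cox7c (68.25%), Cox7a2l (39.5%), Atp5h (32.9%), Ndufs3 (27.5%) and Uqcrb (24.5%). Of these Cox7a2l and Uqcrb were called lower in γ-cells and the others were not called. By its letters alone a single read from such a window cannot be placed, while a pair may still be placed by its mate. The γ-cell libraries were paired and the δ-cell libraries single. How such reads were aligned and counted here was not examined. Without the 23 members that have a copied window and without Atp5sl, for which no transcript was compared, 8 were higher and 34 lower of 64, with a median of -0.36, an alternative added after the data were seen. Shown is 1 coding window of 100 bases of 3 of these members, with the second place in GRCm38 where all 100 bases recur. Capitals mark the 2 bases on each side of an exon junction of the member, which the copy holds without an intron.
Atp5l, copy at chr5:24581761-24581860, minus strand: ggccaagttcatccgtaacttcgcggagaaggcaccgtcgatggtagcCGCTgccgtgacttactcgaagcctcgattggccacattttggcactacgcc
Ndufs5, copy at chr16:42955797-42955896, plus strand: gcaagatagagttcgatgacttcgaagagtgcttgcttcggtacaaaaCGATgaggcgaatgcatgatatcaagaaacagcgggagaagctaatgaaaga
Atp5g2, copy at chr17:5816459-5816558, minus strand: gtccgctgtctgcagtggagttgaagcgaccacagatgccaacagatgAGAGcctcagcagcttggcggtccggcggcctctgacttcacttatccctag

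The copies shown are annotated as processed pseudogenes, Gm10221 for Atp5l, BC002163 for Ndufs5 and Gm10231 for Atp5g2. Reads at the other loci of Atp5l and Atp5g2 are not given. The bulk table gave Gm10221 6 to 15 reads in γ-cell and 2, 1 and 5 in δ-cell libraries, BC002163 39 to 91 and 5, 11 and 5, and Gm10231 0 to 4 and 2, 0 and 0. BC002163 was at 2.34 to 3.18 against 0.654, 0.934 and 0.470 CPM of all reads, higher in γ-cell libraries like Ndufs5 itself. In single cells, where reads are 3' tags counted alike in all libraries, Atp5l was at 657 and 650 CPM in γ- and 650 and 577 in δ-cells (0.10), and Ndufs5 at 237 and 255 against 225 and 196 (0.23). Neither was called there. What part the read type had in the bulk differences was not tested and cannot be told apart from cell type in this design.

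The bulk and single-cell γ over δ comparisons rest on different mice, libraries and cell populations and differed in direction. Bulk libraries hold all sorted YFP+ cells, the single-cell side only monohormonal cells. Among YFP+ single cells 689 and 788 were Ppy cells in experiments 1 and 2. Beside them stood 330 and 338 Ppy+Gcg, 98 and 147 Ppy+Sst and 73 and 36 Ppy+Ins2 cells. The part of this difference was not tested. Of 83 members tested in both, 39 had the same sign. Atp5o is not among them, as its second entry was the one tested in single cells. Most members lay above 0 in single cells whatever their direction in bulk. This held for all 15 members higher in bulk γ-cells and for 28 of the 39 lower in bulk. Of the 7 called in both, 4 had the same direction (among them Atp5g1 and Ndufab1 higher and Cox7a1 lower in γ-cells) and 3 the opposite one. The same counts over all genes are not given, so these cannot be read as particular to the members. Ndufa9 was 1.35 higher in single γ-cells and 0.49 lower in bulk on the log2 scale, Uqcrc1 0.98 higher and -0.44, and Ndufv3 0.49 higher and -0.41. In single cells with the library as the block, Atp5g1, Ndufab1 and Cox7a1 did not pass (adjusted p = 0.30, 0.15 and 0.31). Ndufa9 and Ndufv3 did not pass either (0.061 and 0.30), while Uqcrc1 did (0.013). Cox6a2, which was high in single β-cells, was at 0.048 to 0.646 CPM in bulk γ-cell and 0.081 to 0.452 CPM in δ-cell libraries.

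**Figure D5:**
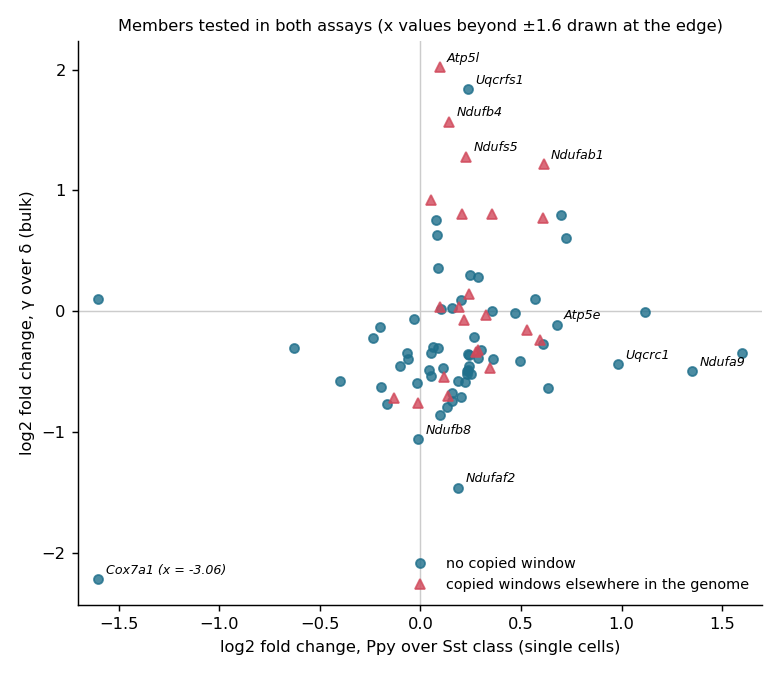
Log2 fold change of the 83 members tested in both assays, Ppy over Sst class in single cells (horizontal) against γ over δ in bulk (vertical); triangles have a copied window elsewhere in the genome, and 3 values beyond 1.6 on the horizontal axis are drawn at its edge. Most points lie right of 0, while in bulk most lie below 0, and the members highest in bulk, such as Atp5l at 2.02, are close to 0 in single cells.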

How the data were processed

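Per the labels and the study's methods, single cells were captured on 10x 3' v2 lanes (mm10, Cell Ranger), and bulk libraries (SMARTer Ultra Low, Nextera XT) were aligned with STAR 2.7.2b and counted with HTSeq 0.9.1 on GRCm38.p6. The authors deposited raw counts in both cases, UMI counts per cell and read counts per gene, with no normalization. Another 6 columns of the bulk table could not be tied to a sample and were not used.

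From these counts, doublets were removed (Scrublet marked 8 of 5982 cells, too few to have worked, and a neighbour-based score 120), cells were clustered with Seurat 5.3.0, clusters with at least 3 of the non-endocrine markers among their 10 leading genes were set aside (4984 cells kept), and hormone classes were set at the minimum between the modes of ln(UMIs per 10000 + 1), 3.25 (Ppy), 5.17 (Gcg), 6.32 (Ins2) and 4.03 (Sst). UMIs were summed per class and experiment, and edgeR 4.0.16 (quasi-likelihood, TMM, filterByExpr, R 4.3.3) was fitted over 14 sums with the experiment as a block, since both fractions and all classes of an experiment come from the same mice. Bulk counts were fitted alike for genes with a mean of at least 5 counts. CPM values of members are TMM-scaled unless stated otherwise, and marker sums are CPM of all UMIs. A kept cluster of 571 cells led by Lyz2 and Retnla gave 48 cells to the classes, and leaving them out is an alternative added after the data were seen. A difference was called at a Benjamini-Hochberg adjusted p of at most 0.05 over all genes tested. Nothing says that bulk replicates were separate animals, so that p-values measure the spread between these libraries. Copied windows were searched with BLAST 2.17.0.

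Depth was 1000 or more UMIs per cell and 7641916 to 31784878 reads per bulk library. Intervals and floors (3 counts) cover counting error only. Alternatives were DESeq2 1.42.0, other scalings, no filter, no block or the library as the block, cells thinned to 1000 UMIs, looser classes, the study's fold thresholds and leaving out replicates. The members and the gene lists were chosen with earlier results of these data known. Genes named with values are the 5 largest calls per comparison and direction with no overlap and at least 10 CPM, fixed isoform families, complex II and core subunits, and genes called in opposite directions in bulk and single cells; lists of every call go beyond this. The scripts were tested on simulated data, where more of the single-cell calls were false than the threshold allows for. The smaller changes were mostly missed, and in bulk the larger ones too. A member with results in some of these comparisons is not reported here.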

Additional observations from a re-analysis of the deposited data

Results flagged for a closer look

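In 3 of 54 sets of bulk γ-cell values, 1 library lay far from the other 4, its gap to the nearest of them taking over 0.71 of the whole range. Chance flags about 1 in 20 such sets. Atp5e, the ε subunit of complex V, was at 55.1 CPM in γ-cell library 2 and at 84.9 to 89.5 CPM in the others. Cox5a was at 11.8 CPM in library 5 against 8.69 to 9.48. Ndufa4l2, a relative of Ndufa4, was at 0.917 CPM in library 3 against 0 to 0.229. No explanation for these 3 was tested.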

How the results depend on the processing

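Scaling, blocking and depth moved the counts of members called. In the order γ over α, γ over β, γ over δ, β over α, δ over α, β over δ, Ppy+Gcg, Ppy+Sst and Ppy+Ins2 over Ppy, the counts were 10, 19, 14, 23, 17, 21, 1, 10 and 4. With no replicate block they were 2, 8, 4, 14, 8, 15, 0, 1 and 1. With the library as the replicate block, within which few Ppy cells meet the other classes, they were 1, 16, 2, 22, 15, 19, 0, 8 and 2. With each cell thinned to 1000 UMIs they were 4, 10, 5, 11, 9, 9, 0, 1 and 0, and with the study's fold threshold 3, 5, 3, 8, 5, 12, 0, 1 and 1. With library size alone, added after the data were seen, they were 47, 63, 64, 77, 16, 78, 10, 54 and 3. For the bihormonal comparisons DESeq2 gave 0, 4 and 2 and hormone thresholds alone 0, 3 and 2, and no filter gave 2 for Ppy+Ins2. Without the kept cluster led by Lyz2, also added later, the counts were 10, 20, 14, 25, 17, 22, 0, 10 and 4. For library size alone and the fold threshold the calls over all genes are given above. For the other alternatives they are not, so those counts cannot be set against all genes. Of 1483 tested checks of named genes, 1217 kept their call, 260 kept the direction but not the threshold and 6 reversed. Another 198, with 1 experiment left out, had no residual degrees of freedom and so no test. The pooled counts hide differences between alternatives. In single cells 48 of 99 kept their call with no replicate block, 63 of 99 with the library as the block and 43 of 97 at 1000 UMIs. With hormone genes left out 97 of 99 did. Reversed were, with the library as the block, Cox5a in γ over α (0.14) and γ over δ (0.030) and Uqcrfs1 in γ over β (0.19), and, at 1000 UMIs, Uqcrfs1 (0.85) and Atp5g1 (0.088) in γ over β and Cox5a in Ppy+Ins2 over Ppy (-0.062). The cause was not tested.

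In bulk, 9 members passed with the fold threshold and 49 to 56 with 1 library left out (49 without δ-cell library 2). Same-numbered bulk libraries did not deviate together (r of -0.0952, 0.0678 and -0.274), and a replicate block gave 44 calls. Without hormone genes the members' mean share was 3.005% (Ppy), 2.908% (Gcg), 3.773% (Ins2), 2.985% (Sst), 2.877% (Ppy+Gcg), 2.961% (Ppy+Sst) and 3.239% (Ppy+Ins2), and 0.944% and 1.01% in bulk γ and δ. With hormone thresholds alone the share of all UMIs in Ppy cells was 1.46%. Depth limits the counts: at 1000 UMIs per cell they were lower in each of these 9 comparisons of hormone classes.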
